A study of Mus musculus with 8 samples.

Results

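The genes described here belong to the unfolded protein response and the integrated stress response, with levels from the mouse spleen stromal cell line mSSC-YFP. They were taken from the deposited expression table by gene symbol, from a list of 46 symbols covering 5 roles. Of these, 45 had a row among the 12589 genes of the table, namely 15 endoplasmic reticulum (ER) chaperones and folding enzymes, 6 genes of ER-associated degradation, 6 stress sensors and transducers, 9 genes of the ATF4 and CHOP arm, and 9 enzymes of amino acid synthesis. Derl3, of the degradation genes, had no row, so its promoter is described below but its level was not analysed here.

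The line is an immortalized stromal line from mouse spleen that carries a yellow fluorescent protein (YFP). The cultures were kept for 48 h either with BMS493, an inverse agonist of the retinoic acid receptors that blocks retinoic acid signaling, or with DMSO, the solvent of the compound. There were 4 cultures with BMS493 and 4 with DMSO, all of the same line, and the sources used here do not say that they were started separately. The single deposited table gives each gene 1 mean log2 expression value over all cultures, and it is this mean of the authors that every level below rests on. No level of a single culture or of a single treatment group was used, so no spread between cultures can be given, and a difference between BMS493 and DMSO was not analysed here. Where the levels of genes lie close together, their order cannot be judged against replicate error.

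ER-resident chaperones fold proteins that enter the secretory pathway, and fibroblast-like cells that secrete collagen rely on them heavily. When unfolded proteins accumulate, a set of sensors in the ER membrane responds, namely IRE1 (encoded by Ern1), ATF6 and PERK (encoded by Eif2ak3), and the first of these splices the mRNA of the transcription factor Xbp1. PERK belongs to a group of kinases that phosphorylate the translation factor eIF2alpha, which lowers general translation while the mRNA of Atf4 is translated more, and ATF4 in turn drives genes of amino acid synthesis and uptake, tRNA charging and the factor CHOP (encoded by Ddit3).

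Short promoter elements by which the ATF6, XBP1 and ATF4 factors are known to act were searched for, and their matches are shown first. The stretch searched ran from 250 bases before to 50 bases after each transcription start, 300 bases in all, from RefSeq on the build GRCm38.p6. Of the 46 symbols, 40 had such a stretch, and Derl1, Atf6, Hyou1, Manf, Cth and Ppp1r15b had none. The motifs searched on both strands were the ER stress response element (ERSE, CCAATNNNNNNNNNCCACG), its second form (ERSE-II, ATTGGNCCACG), the core of the unfolded protein response element (UPRE core, TGACGTG) and the composite C/EBP-ATF element (TGATGNAA). No matches of different motifs overlapped in the promoters of members.

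ERSE stood in the promoters of 9 of 40 members (22.5%), against 37 of 27025 genes with a promoter stretch (0.137%). The members were Hspa5, Hsp90b1, Calr, Canx, Pdia6, Dnajc3 and Creld2 among the chaperones and Syvn1 and Derl3 among the degradation genes. ERSE was originally defined on promoters of ER chaperones, Hspa5, Hsp90b1 and Calr among them, so its presence there is no independent result. The sequences below, 5′ to 3′ on the strand of the gene and ending before the transcription start, show where the matches lay. Capitals mark the ERSE or its reverse complement, and in the first stretch of Hspa5 the UPRE core.

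Hspa5 with the UPRE core, chr2:34771840-34771969, plus strand: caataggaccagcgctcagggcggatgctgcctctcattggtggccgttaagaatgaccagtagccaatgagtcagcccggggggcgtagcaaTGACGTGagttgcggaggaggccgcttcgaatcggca
Hspa5 with the ERSE, chr2:34772019-34772048, plus strand: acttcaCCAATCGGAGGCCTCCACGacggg
Hsp90b1, chr10:86705525-86705664, minus strand: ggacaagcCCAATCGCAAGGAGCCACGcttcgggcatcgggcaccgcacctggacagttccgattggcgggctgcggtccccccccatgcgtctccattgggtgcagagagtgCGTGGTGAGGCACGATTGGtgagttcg
Calr, chr8:84847052-84847111, minus strand: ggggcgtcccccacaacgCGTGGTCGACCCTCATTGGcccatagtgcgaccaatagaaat
Canx, chr11:50325774-50325833, minus strand: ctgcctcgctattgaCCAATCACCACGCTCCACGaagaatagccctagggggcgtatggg
Pdia6, chr12:17266469-17266528, plus strand: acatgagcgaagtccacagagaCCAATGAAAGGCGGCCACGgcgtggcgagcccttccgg
Dnajc3, chr14:118937812-118937871, plus strand: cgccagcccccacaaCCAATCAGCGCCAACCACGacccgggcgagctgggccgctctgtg
Creld2, chr15:88819506-88819565, plus strand: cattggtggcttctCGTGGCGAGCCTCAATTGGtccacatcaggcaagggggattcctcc
Syvn1, chr19:6046516-6046575, plus strand: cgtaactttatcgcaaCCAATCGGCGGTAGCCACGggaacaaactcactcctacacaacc
Derl3, chr10:75893218-75893277, plus strand: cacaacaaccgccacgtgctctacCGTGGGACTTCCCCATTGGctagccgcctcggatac

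Starts are those of RefSeq. In the GENCODE annotation the first exon of Hspa5 begins farther upstream. The 30 bases shown with its ERSE lie within that exon, while 0 bases of the other printed stretches of these genes overlap an exon. Hsp90b1 held 2 matches, which began 212 and 107 bases before the start, and every other of these genes held 1. The match in Syvn1 lay closest to its start, at 44 bases, followed by Hspa5 at 65 bases and Pdia6 at 98 bases. The match in Calr began 162 bases before the start. By role, ERSE was found in 7 of 13 chaperones (53.8%) and 2 of 6 degradation genes. It was found in 0 of 5 sensors, 0 of 8 genes of the ATF4 and CHOP arm and 0 of 8 amino acid synthesis genes. Among so few genes, these counts of 0 cannot be told apart from the 0.137% share of all genes. The UPRE core was found in 1 of 40 members (2.5%), Hspa5, against 2.22% of all genes with a stretch, so its share among the members was near that of all promoters.

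Degradation genes aside, the composite C/EBP-ATF element, to which ATF4 binds together with C/EBP factors, was found in other roles than ERSE. It stood in 6 of 40 members (15%), against 4.51% of all genes with a promoter stretch and 2.61% of those with a row in the expression table. The members were Atf3, Chac1 and Trib3 of the ATF4 and CHOP arm, Asns and Pycr1 of amino acid synthesis, and Herpud1 of the degradation genes. None of the 13 chaperones held it, which among so few genes cannot be told apart from the 4.51% of all genes. ERSE-II was found in 2 members, Herpud1 and Dnajb11, against 12 genes (0.0444%) of all. Herpud1, which anchors a degradation complex in the ER membrane, thus held both an ERSE-type and a composite element. Both elements were themselves defined on genes of these stress responses, ERSE-II on Herpud1 and the composite element on targets of ATF4 such as Asns, so these counts too are no independent result. The capitals below mark the composite element or its reverse complement, and in Herpud1 also ERSE-II, the second of the capital runs there.

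Herpud1, chr8:94386309-94386398, plus strand: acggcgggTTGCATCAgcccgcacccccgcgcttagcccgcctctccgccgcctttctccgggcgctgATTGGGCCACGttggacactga
Asns, chr6:7693214-7693243, minus strand: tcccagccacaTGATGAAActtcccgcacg
Pycr1, chr11:120643809-120643868, minus strand: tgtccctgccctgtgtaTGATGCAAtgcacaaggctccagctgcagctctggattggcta
Chac1, chr2:119351022-119351081, plus strand: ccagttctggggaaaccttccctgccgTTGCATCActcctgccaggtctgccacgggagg
Atf3, chr1:191183414-191183473, minus strand: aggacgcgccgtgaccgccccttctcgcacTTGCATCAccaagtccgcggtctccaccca

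The 30 bases shown for Asns lie within an exon of the GENCODE annotation, which begins farther upstream than in RefSeq. In Herpud1 the composite element began 112 bases and ERSE-II 52 bases before the start. The composite element began 23 bases before the start of Asns and 103 bases before that of Pycr1. It began 193 bases before the start of Chac1 and 110 bases before that of Atf3. This start of Atf3 is the RefSeq one, while in GENCODE the gene reaches farther upstream, to chr1:191218039. The matches in Trib3 and in Dnajb11 lay after the start and are not printed. A match is a description of these letters, and its absence says only that they are not in this stretch. Any of the 4 motifs was found in 16 of 40 members (40%), against 1841 of 27025 genes with a stretch (6.81%). Like the counts above, this is no independent result. None of the motifs was found in 24 of 40 members, the 5 sensors with a stretch among them. Among so few sensors, 0 cannot be told apart from the 6.81% of all genes.

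**Figure D1:**
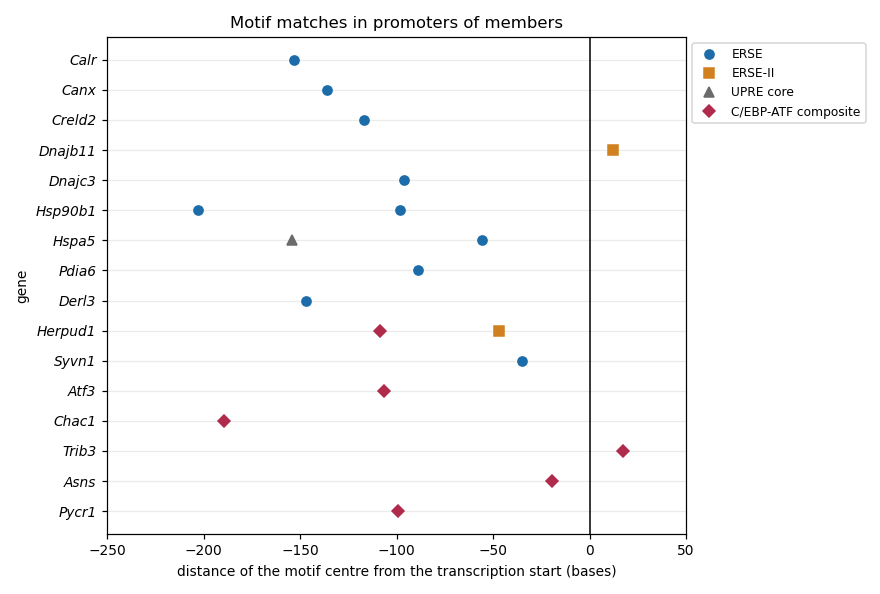
Positions of motif matches in the promoters of the 16 members that held any, with the distance of the motif centre from the transcription start (in bases, negative before the start) on the horizontal axis and 1 gene per line. Circles (ERSE) stand on chaperones and degradation genes, diamonds (composite element) on Herpud1 and on genes of the ATF4 and CHOP arm and amino acid synthesis, and the matches of Dnajb11 and Trib3 lie to the right of the start.

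The stromal markers were largely present. Of 12 stromal markers, 11 had a row, from Pdgfra at a mean log2 level of 5.24 to Col1a1 at 13.29, the highest level of the table, and Icam1 had none. None of 6 B cell markers and 1 of 7 leukocyte and macrophage markers, Cd68 at 1.36, had a row. Of 4 endothelial markers, Pecam1 and Kdr were listed at 0.47 and 2.83. Of 4 epithelial markers, Krt8 and Krt18 were low at 1.55 and 0.31, Epcam had no row, and Cdh1 had a level of 8.03. The part of other cells in the levels below was not tested. The table's median level was 4.99, with an interquartile range from 3.33 to 6.25. Because a longer mRNA yields more reads, genes are compared below by the log2 level per kilobase of exon, and the deposited level is named as such where it is given beside it. The level per kilobase is the deposited log2 level less the log2 of the exon length in kilobases. On this scale the median was 2.85 over the 12383 genes with a length, and the interquartile range ran from 1.42 to 4.15.

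The 45 members lay high in the table. Their median was 4.995 per kilobase on the log2 scale, the 86.3rd percentile of all genes, and 40 of 45 exceeded the median of all genes (42 as deposited). There were 36 members above the 75th percentile of all genes (30 as deposited) and 21 above the 90th, while 0 stood below the 25th. From Cth, the lowest, to P4hb, the highest, the range per kilobase was 148-fold. Together the members held 1.44% of the summed linear level of the table as deposited. Most of that sum came from few of them, since P4hb, Hsp90b1, Calr, Pdia3, Hspa5 and Canx, 6 ER chaperones and folding enzymes, accounted for 56.8% of it (55.7% per kilobase).

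**Figure D2:**
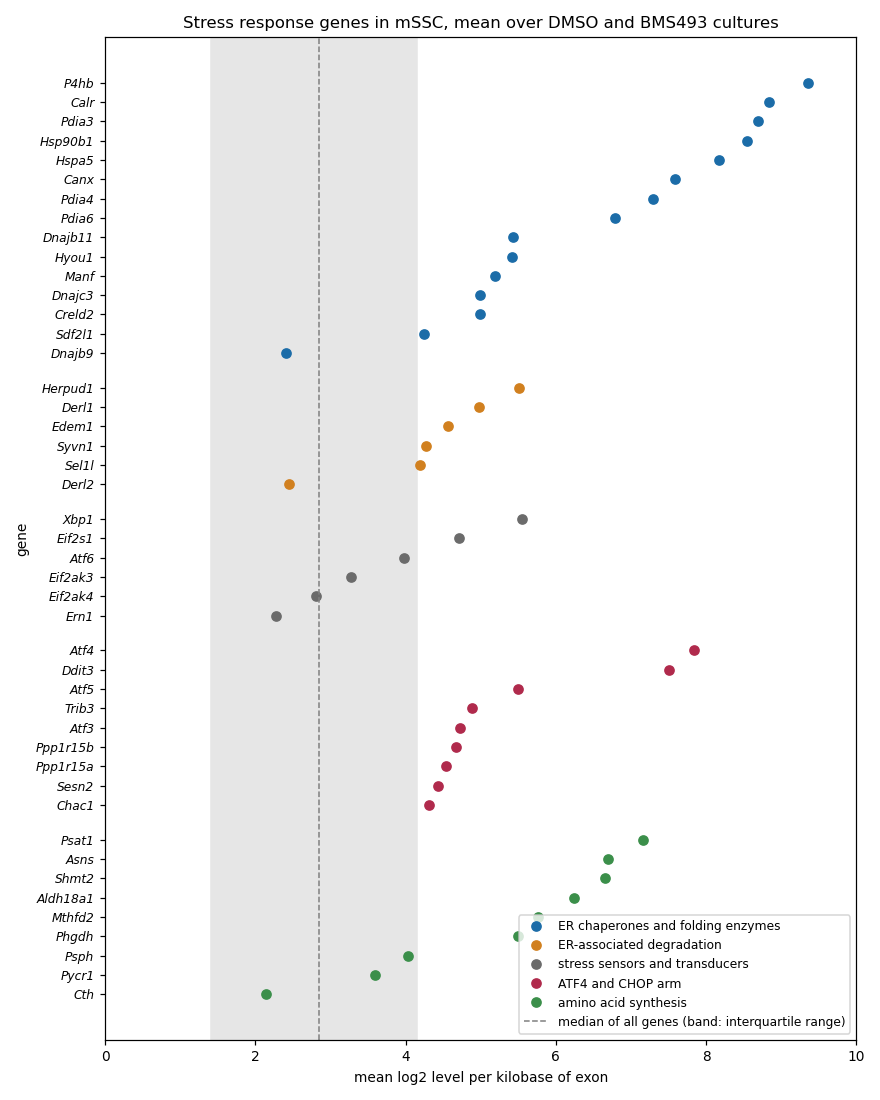
Mean log2 level per kilobase of exon of the 45 members, 1 point per gene, ordered within 5 roles marked by colour, with the median of all genes as a dashed line and their interquartile range as a grey band. The chaperones reach from 2.40 (Dnajb9) to 9.35 (P4hb), all 9 genes of the ATF4 and CHOP arm lie to the right of the band, and 4 of the 6 sensors lie within it.

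Among the roles, the ER chaperones and folding enzymes stood highest, with a median of 6.79 log2 per kilobase (97.0th percentile). Of 15 genes, 14 were above the 75th percentile of the table (12 as deposited) and 10 above the 90th. P4hb, a protein disulfide isomerase that is also the beta subunit of the collagen prolyl 4-hydroxylase, led with 9.35 per kilobase and a deposited level of 10.87. The lectin chaperone Calr followed with 8.83 per kilobase, with its membrane-bound relative Canx at 7.59. Pdia3, the disulfide isomerase that works with both of them on glycoproteins, had 8.69.

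The general chaperones of the ER lumen lay in the same range. Hsp90b1, the ER member of the Hsp90 class (GRP94), had 8.54 per kilobase and Hspa5, the ER Hsp70 (BiP), 8.17. In Hsp90b1, 5.38% of the exon bases overlapped a gene on the same strand. The cofactors of BiP stood lower. Hyou1, which exchanges its nucleotide, had 5.42, and its J-domain partners Dnajb11, Dnajc3 and Dnajb9 had 5.43, 4.995 and 2.40. Dnajb9, with a deposited level of 3.75, was the only chaperone below the median of all genes per kilobase, while as deposited Sdf2l1, at 4.40, was below it as well. The remaining disulfide isomerases Pdia4 and Pdia6 had 7.29 and 6.79, and the small ER proteins Manf, Creld2 and Sdf2l1 had 5.18, 4.99 and 4.25 per kilobase. Of the 13 chaperones with a promoter stretch, the 7 with ERSE ranged from 4.99 to 8.83 (median 7.59) and the 6 without it from 2.40 to 9.35 (median 6.36), so the ranges overlapped.

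The genes of ER-associated degradation, which return misfolded proteins to the cytosol for breakdown, had a median of 4.42 per kilobase (79.2nd percentile), and 5 of 6 lay above the 75th percentile. Herpud1 stood highest at 5.50. Derl1, of the channel-forming Derlins, had 4.98 and its relative Derl2 2.45, the lowest value of the role. Derl2 was below the median of all genes per kilobase and above it as deposited, at 5.45. Edem1, which trims mannose from misfolded glycoproteins, had 4.57. The ubiquitin ligase Syvn1 (HRD1) and its partner Sel1l had nearly equal levels per kilobase, 4.27 and 4.19. All 6 genes lay within 8.33-fold of each other, against 124-fold among the chaperones, whose summed level per kilobase was 1.02% of the table where that of the degradation genes was 0.0515%.

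The sensors and transducers formed the lowest role per kilobase, with a median of 3.63 (65.8th percentile), although on the deposited scale they stood at the 78.3rd percentile and the ATF4 and CHOP arm, at the 74.5th, was lowest. Per kilobase the 6 genes included 2 above the 75th percentile. Xbp1, the transcription factor downstream of IRE1, stood highest at 5.55. Eif2s1, which encodes eIF2alpha, the substrate of the kinases, had 4.71. Among the sensors themselves, Atf6 had 3.98, Eif2ak3 (PERK) 3.27 and Ern1 (IRE1) 2.28. Eif2ak4, which encodes GCN2, the kinase that senses uncharged tRNA, had 2.81 per kilobase. Ern1 and Eif2ak4 were below the median of all genes per kilobase and above it as deposited, at 5.31 and 5.71. The table counts reads per gene, so spliced and unspliced Xbp1 mRNA cannot be told apart.

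All 9 genes of the ATF4 and CHOP arm exceeded the median of all genes and all 9 lay above the 75th percentile, with a median of 4.72 per kilobase (83.1st percentile), whereas 4 of 9 exceeded the 75th percentile on the deposited scale. The transcription factors Atf4 and Ddit3 stood apart at 7.84 and 7.51, and no other gene of this role exceeded 5.49, the value of Atf5. In Ddit3, 6.13% of the exon bases overlapped a gene on the same strand. Trib3, a pseudokinase induced by ATF4 and CHOP, had 4.89 and the transcription factor Atf3 4.72. Both eIF2alpha phosphatase subunits were present, Ppp1r15b (CReP), the constitutive form, at 4.67 and Ppp1r15a (GADD34), the inducible form, at 4.53. Sesn2, a stress-induced regulator of mTORC1, and Chac1, an enzyme that degrades glutathione, had 4.43 and 4.32. The 7 genes other than Atf4 and Ddit3 thus lay between 4.32 and 5.49 per kilobase.

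The amino acid synthesis genes had a median of 5.76 per kilobase (92.6th percentile), and 6 of 9 lay above the 90th percentile of the table. In the serine pathway, Psat1, the aminotransferase of the second step, stood highest at 7.15, while Phgdh, the enzyme of the first step, had 5.50 and Psph, the phosphatase of the last, 4.03. Of the 1794 stretches of 100 bases in the longest Phgdh transcript, 37.3% were identical to a stretch in a transcript elsewhere in the genome. Reads from these cannot be placed uniquely, and only uniquely placed reads were counted, but by how much this lowers the level of Phgdh was not tested. The corresponding share was at most 2.57% (Derl1) in every other member with a row.

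Asns, the asparagine synthetase, had 6.69 per kilobase. The mitochondrial folate enzymes Shmt2, which uses serine, and Mthfd2 had 6.65 and 5.76. In proline synthesis Aldh18a1, which makes the pyrroline-5-carboxylate precursor, had 6.24, and Pycr1, which reduces it in mitochondria, 3.59. Cth, the cystathionine lyase that makes cysteine, was the lowest of all members at 2.14 per kilobase and a deposited level of 3.62.

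Some members were also set beside close relatives. Of 19 such families, 17 had at least 2 genes in the table, with 21 members among them, and in 13 a member was the highest gene per kilobase. In 2 of the 17, the Derlins and the pair of phosphatase subunits, every gene with a row was a member, so that a member had to lead. In how many families a member would lead by the number of members alone was not computed, so the 13 is a description only. Herpud1 was 2.68 log2 units above Herpud2 (5.50 against 2.83), Chac1 2.23 above Chac2 (4.32 against 2.09) and Creld2 1.88 above Creld1 (4.99 against 3.11). As deposited, Creld2 and Creld1 were near each other at 5.44 and 5.20. Manf was 6.20 log2 units above Cdnf, the other gene of its family, which stood at -1.02. Sesn2 at 4.43 exceeded Sesn1 at 2.45 and Sesn3 at 1.69, and Trib3 at 4.89 exceeded Trib1 at 3.65 and Trib2 at 0.91. As deposited, before division by length, Trib1 exceeded Trib3 (6.29 against 5.98).

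In 1-carbon metabolism the mitochondrial Shmt2 was 3.91 log2 units above the cytosolic Shmt1 (6.65 against 2.74). Mthfd2 at 5.76 exceeded Mthfd1 at 4.92, Mthfd1l at 4.78 and Mthfd2l at 0.68. Edem1 at 4.57 stood above Edem2 at 3.64 and Edem3 at 3.40. In the calreticulin family, Calr3 stood at 0.25, far below Calr and Canx, and Calr4 and Clgn had no row.

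In other families a relative led or came close. The cytosolic Hsp90ab1, at 10.54 per kilobase, exceeded Hsp90b1 by 2.00 log2 units, and Hsp90aa1 and the mitochondrial Trap1 followed at 6.25 and 5.70. In Hsp90aa1, 47.6% of the 100-base stretches were shared with transcripts of other genes. In the Hsp70 class, Hspa5 at 8.17 was close to the cytosolic Hspa8 at 7.90 and the mitochondrial Hspa9 at 7.88, and Hspa13 was far lower at 3.03. The corresponding shared part of Hspa8 was 32.1%, and with the length of the longest transcript in place of the exon union, Hspa9 led this class. Atf6b exceeded Atf6 by 1.03 log2 units (5.01 against 3.98), an order that was the opposite on the deposited scale (6.48 against 7.19).

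Sdf2 at 5.18 exceeded Sdf2l1 at 4.25. The 4 eIF2alpha kinases lay within 0.76 log2 units of each other, with Eif2ak1 (HRI) at 3.57, Eif2ak3 at 3.27, Eif2ak2 (PKR) at 3.07 and Eif2ak4 at 2.81. The phosphatase subunits Ppp1r15b and Ppp1r15a differed by 0.14. Differences of this size cannot be judged without the spread between cultures. The highest gene of the family was the same on 3 scales (as deposited, per kilobase of exon, and per kilobase of the longest transcript) in 14 of 17 families.

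**Figure D3:**
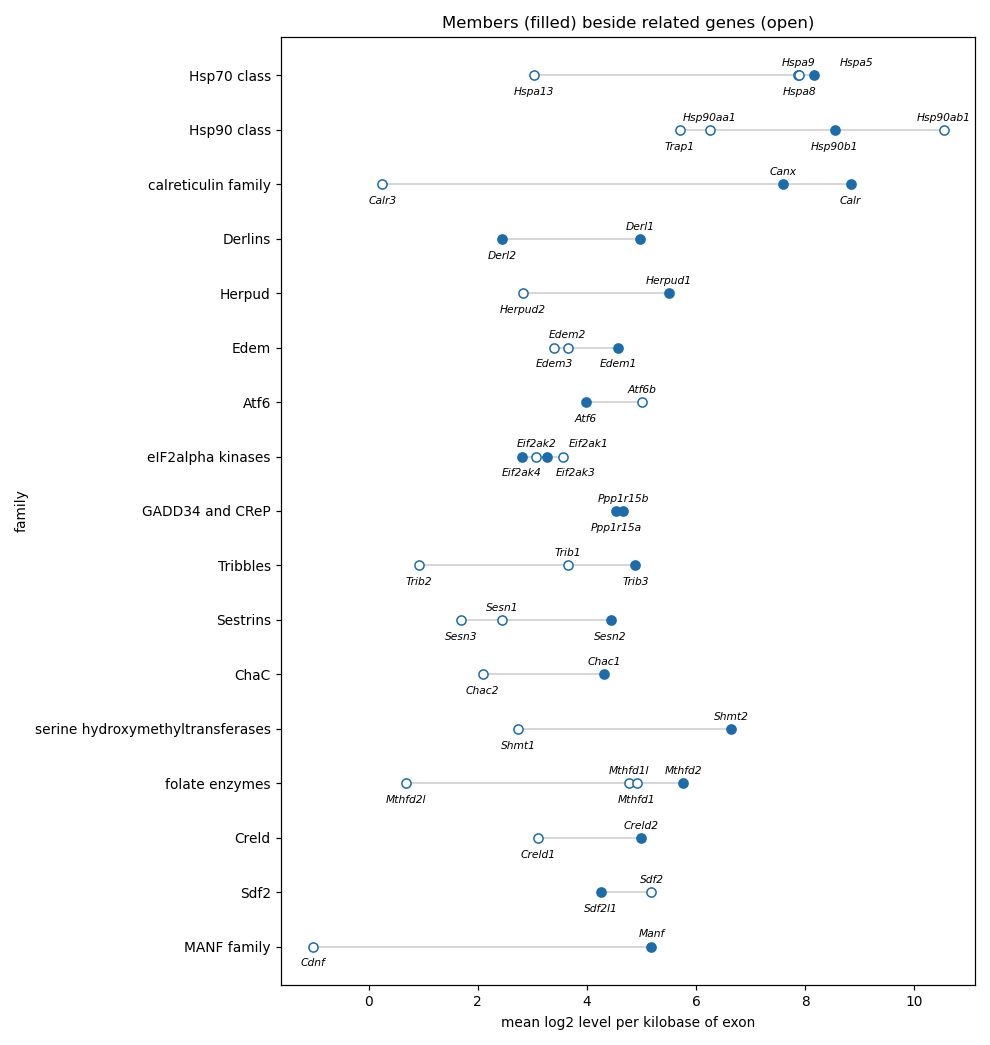
Mean log2 level per kilobase of exon in the 17 families with at least 2 genes in the table, 1 family per line, with members filled and related genes that are no members open. A filled point lies farthest right in 13 of the 17 families, and the eIF2alpha kinases lie within 0.76 log2 units.

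Further genes of the same pathways, listed by function and not by their level, are given beside the members. The 20 other ER folding genes with a row had a median of 4.38 per kilobase (78.7th percentile) and 11 of them lay above the 75th percentile, against 6.79 and 14 of 15 for the chaperones among the members. Txndc5 and Ganab, a disulfide isomerase and a glucosidase subunit, led at 6.95 and 6.65, and Ero1lb and Txndc11 were lowest at -1.41 and 2.54. The 15 other degradation genes had a median of 4.83 (84.4th percentile), against 4.42 for the degradation genes among the members. As deposited the order was the opposite, with medians of 6.37 and 6.72. They ranged from the lectin Os9 at 7.89 and Vimp at 5.74 down to Edem3 at 3.40 and Herpud2 at 2.83. The 16 other sensors and transducers had a median of 4.47 (79.7th percentile), against 3.63 for the sensors and transducers among the members. On the deposited scale these medians were 6.03 and 6.44, again in the opposite order. The ER-bound transcription factor Creb3l1 at 5.98 and the eIF2B subunit Eif2b5 at 5.73 were highest, and Eif2b3 at 2.27 and the protease Mbtps2 at 1.56 lowest. In Mbtps2, 28.4% of the exon bases overlapped a gene on the same strand.

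The 23 other targets of the integrated stress response had a median of 4.92 (85.5th percentile) and 17 lay above the 75th percentile. The tRNA synthetases Gars and Nars led at 7.65 and 6.91, and the cystine transporter Slc7a11 and the secreted Stc2 were lowest at 0.56 and -0.60. The summed level per kilobase of these 23 genes was 0.384% of the table, and that of the 9 genes of the ATF4 and CHOP arm 0.216%.

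Collagen chains, a main secretory product of stromal cells, were set beside the chaperones. The 6 fibrillar collagen chains examined held 1.98% of the summed linear level of the table as deposited and 0.861% per kilobase, where the 15 chaperones held 0.981% and 1.02%. Col1a1 had 10.57 per kilobase, above P4hb at 9.35, and Col1a2 had 8.84, while Col5a3 had 1.95. The merged exons of Col1a2 and Col3a1 spanned 12426 and 9816 bases, against 5348 and 5564 in their longest transcripts. For P4hb both lengths were 2861. The merged length thus gives both collagens a lower level than the longest transcript would. The shares were not computed with the longest transcript. As deposited, Col1a1 and Col1a2 stood at 13.29 and 12.47, both above P4hb at 10.87. The 14 collagen-modifying ER proteins with a row had a median of 5.05 per kilobase (86.9th percentile). Serpinh1, the collagen chaperone HSP47, stood at 9.29, next to P4hb, and P4ha1, the alpha subunit that pairs with P4hb in the prolyl 4-hydroxylase, at 7.56. Leprel1 was lowest at 2.54. The alpha subunits P4ha3 and P4ha2 had 5.04 and 4.38, and as deposited 6.69 and 7.02.

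**Figure D4:**
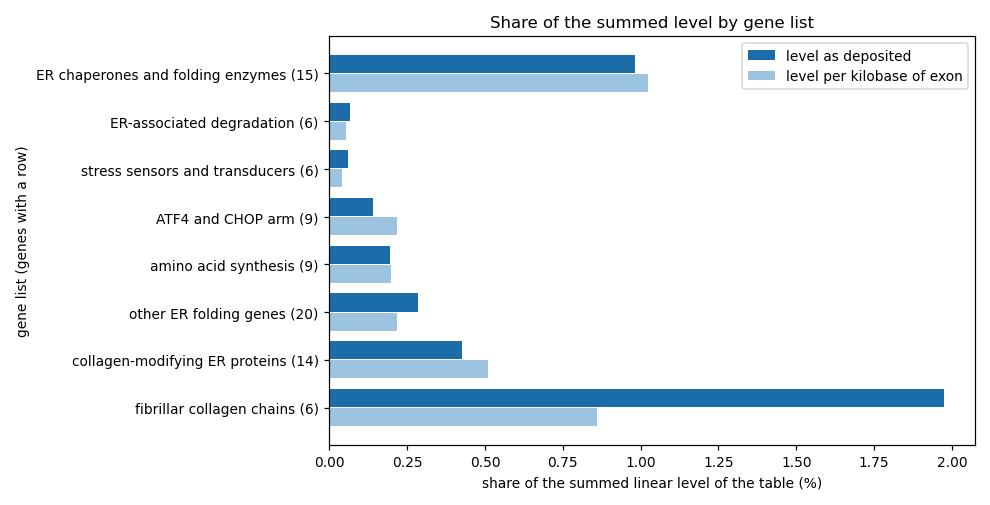
Share of the summed linear level of the table (%) held by the 5 roles and by 3 further gene lists, as deposited (dark bars) and per kilobase of exon (light bars), with the number of genes with a row in parentheses. The fibrillar collagen chains exceed the chaperones as deposited (1.98% against 0.981%) and fall below them per kilobase of merged exon (0.861% against 1.02%). With the longest transcript this order was not examined.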

How the data were processed

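RNA of mSSC-YFP cultures treated with BMS493 (n = 4) or DMSO (n = 4) for 48 h was sequenced from stranded poly(A) libraries. The authors aligned single-end reads to mm10 with STAR (2.3.0e), counted uniquely placed reads per Ensembl gene, scaled libraries by the trimmed mean of M-values and tested with limma. The 1 deposited table gives the authors' mean log2 normalized expression per gene over all cultures. Its other 4 columns hold their comparison of the groups (log2 fold change, t, p-value and adjusted p-value). These were not used, so there is no test and no error here. Depth per culture is not analysed here.

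Exon lengths were the merged exons of GENCODE release M21 (GRCm38). Of 12589 rows, 11783 matched by symbol, 600 by 1 older symbol and 206 were unmatched; 2 rows share a symbol damaged to a date. Log2 levels per kilobase, their percentiles over 12383 genes, and shares of the summed linear level were computed with Python 3.11.15 and pandas 2.3.3. Shares as deposited used 2 to the power of the deposited value, summed over all rows. Shares per kilobase used 2 to the power of the level per kilobase, summed over the 12383 genes with a length. The motif search, the merged exon length and the percentile were tested on simulated or constructed data with known answers, and the other steps were not. Dividing by the merged exon length understates genes that use short isoforms. Promoters were those of RefSeq for GRCm38.p6, searched on both strands. Stretches shared between transcripts were exact 100-base matches to a gene at another locus.

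The members and lists were chosen with earlier results of these data known. Every member with a row was named, as were the relatives in 19 families (a further family is not reported here), and of the other pathway lists the 2 highest and 2 lowest genes. Alternatives were the deposited scale, the longest transcript, a minimum level of 1 for the reference genes, and a window of 200 bases before the start.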

Additional observations from a re-analysis of the deposited data

How the results depend on the processing

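The percentile of the median level per kilobase of exon was recomputed under 3 alternatives. On the deposited scale it was 82.7 for the degradation genes (79.2 per kilobase), 78.3 for the sensors (65.8), 74.5 for the ATF4 and CHOP arm (83.1), 92.0 for amino acid synthesis (92.6) and 88.0 for all members (86.3), so the sensors stood above the ATF4 and CHOP arm there and below it per kilobase. With the longest transcript it was 97.3 for the chaperones (97.0), 76.2 for the degradation genes, 64.8 for the sensors, 79.2 for the ATF4 and CHOP arm, 94.1 for amino acid synthesis and 84.7 for all members. Against genes with a log2 level of at least 1 it was 77.7, 63.4, 82.0, 92.1 and 85.4 for the same lists without the chaperones. Without Phgdh, a choice made after seeing the data, amino acid synthesis stood at 93.8. With 200 bases before the start, ERSE-II was found in 1 member in place of 2. Of 25 alternative values, 7 lay within the 95% binomial interval of the percentile (exact) or within 1.5 times the count, and 18 did not. That interval reflects only the number of reference genes, not the spread between members or cultures, so small shifts also fall outside it. No paired analysis was possible because no values of single cultures were used; leaving out cultures was not possible for the same reason, and the search for ER retention signals was not run because protein sequences were not used here. The mean mixes both treatments, and depth and replicate error were not analysed here.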

Other observations

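Cdh1, which encodes the epithelial adhesion protein E-cadherin, had a mean log2 level of 8.03 and 5.83 per kilobase (93.0th percentile) in this stromal line. The other epithelial markers examined were low, with Krt8 at 1.55 and Krt18 at 0.31, and Epcam had no row.

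Outside the list, 8 genes with a row held ERSE in their promoter stretch, namely Acacb, Adcy3, Alg12, Ero1lb, Hnrnpa3, Pan2, Spats2l and Zfp57. Their log2 levels per kilobase ran from -2.24 for Acacb to 4.64 for Zfp57. The match of Alg12, which encodes a mannosyltransferase of N-glycan assembly, was the same element as that of Creld2, at chr15:88819520-88819538, between 2 genes that are transcribed in opposite directions. Alg12 had 2.42 per kilobase and Creld2 4.99, so the genes that share the element differed by 2.57 log2 units in level. Ero1lb, an oxidase that recharges disulfide isomerases, had -1.41 per kilobase, while its relative Ero1l had 3.81.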
